A study of Homo sapiens with 4 samples.

Results

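The kallikrein genes described here are the 8 whose identifiers, matched without their version to GENCODE 29, carry the symbols KLK1, KLK2, KLK3, KLK4, KLK10, KLK11, KLK15 and KLKP1. They are 8 of 60483 genes in the deposited tables and 8 of the 16 genes of the tissue kallikrein family on chromosome 19, counting the pseudogene KLKP1. Expression was measured by RNA sequencing in 2 libraries of enzalutamide-resistant cells (C4-2-ENZ, called resistant below) and 2 libraries of control cells (C4-2-CON). Both groups are C4-2, a castration-resistant human prostate cancer line derived from LNCaP cells, of the same passage range. Enzalutamide is an antiandrogen used against prostate cancer. The labels put culture with or without the drug at 1 month. They do not say whether control cells received vehicle, whether the drug was present at harvest, or whether the resistant cells are a pool or a clone, so an effect of the drug and one of resistance cannot be told apart.

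Tissue kallikreins are secreted serine proteases that are made as inactive precursors and cut to their active form by other proteases, including one another. In the prostate, androgen drives several of them. Steroid hormone receptors, the glucocorticoid and progesterone receptors among them, bind a palindromic DNA element. KLK3 encodes prostate-specific antigen, the blood marker of prostate cancer, which liquefies semen by cutting the semenogelins. KLK2 encodes a trypsin-like protease that can activate the KLK3 precursor, and KLK4 and KLK15 encode further proteases of the prostate that can do the same.

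The promoters of the 2 most abundant members and of the 1 member that rose are shown to let this steroid response element be read beside the values. RefSeq (GRCh38.p14) held windows for 6 of the 8 members, KLK2, KLK3, KLK4, KLK10, KLK11 and KLK15, with 10 windows in all. Each stretch below holds the 250 bases before a RefSeq start, 5′ to 3′ on the gene's own strand. The search was for AGAACA, any 3 bases, then TGTTCT, which reads the same on both strands. It scored the 12 fixed positions, and capitals mark the best 15-base match where at least 9 of the 12 positions matched.
KLK3, chr19:50854665-50854914, plus strand: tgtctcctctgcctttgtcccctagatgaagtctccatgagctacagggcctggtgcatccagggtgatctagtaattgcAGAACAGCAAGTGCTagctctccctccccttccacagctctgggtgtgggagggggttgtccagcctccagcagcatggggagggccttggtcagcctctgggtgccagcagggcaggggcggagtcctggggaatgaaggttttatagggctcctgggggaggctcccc
KLK2, chr19:50873189-50873438, plus strand: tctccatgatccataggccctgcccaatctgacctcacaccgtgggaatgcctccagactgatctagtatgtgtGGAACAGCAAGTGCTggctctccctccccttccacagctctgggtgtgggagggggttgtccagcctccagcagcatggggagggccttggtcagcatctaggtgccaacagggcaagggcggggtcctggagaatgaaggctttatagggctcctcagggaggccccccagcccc
KLK4, chr19:50910739-50910988, minus strand: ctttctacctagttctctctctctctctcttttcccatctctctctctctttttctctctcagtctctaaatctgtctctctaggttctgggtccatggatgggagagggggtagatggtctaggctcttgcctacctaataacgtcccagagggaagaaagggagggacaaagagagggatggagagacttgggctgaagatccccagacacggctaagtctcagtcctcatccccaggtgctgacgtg

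KLK3 matched the element at 10 of 12 positions, from -170 to -156 counted back from its start, and KLK2 at 9 of 12, from -176 to -162. Counted from 1 at its 5′ end, the KLK2 stretch differed from that of KLK3 by the substitution A1G and was otherwise the same. Of 35116 RefSeq windows of this length, among which those of 1 gene can overlap, 1.18% matched at 10 or more positions and 9.17% at 9 or more. The KLK2 and KLK3 windows were identical at 205 of 259 aligned columns (79.2%, gaps counted as differences). The KLK4 window shown matched at no more than 6 positions and its other window at no more than 7. Best matches were 7 in the KLK11 and KLK15 windows and 8 in those of KLK10, and 42% of all windows reached 8. The best matches of KLK15 and of the other KLK4 window were thus equal, at 7 positions. Sequence outside these windows of 250 bases was not searched, so elements further out would be missed. Whether the element bears on the changes was not tested. The KLK2 window lies inside the longer GENCODE 29 span of that gene, which starts at 50861568.

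KLK2 and KLK3 are close copies in their coding sequence, with 85.3% identity over 783 bases each, against 54.9% between KLK3 and KLK4. Almost every stretch of 50 bases could still be told apart. Only 31 of 6910 distinct 50-base stretches of KLK2 transcripts and 11 of 5119 of KLK3 transcripts occurred in transcripts of any other gene. No such stretch of KLK1, KLK4, KLK15 or KLKP1 was shared. The length of the reads was not given in the sources used here.

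Gene counts totalled 45033885 and 39047453 in resistant replicates 1 and 2, against 25589724 and 29866008 in control replicates 1 and 2. Reads that did not align made up 20.32% to 20.66% of records in resistant libraries and 34.16% to 36.95% in control libraries, and the part of this difference in the results was not tested. All 5 luminal prostate markers counted passed the filter on low counts, with a summed level of 2340 CPM (counts scaled to equal library size with TMM factors) in both resistant and 1800 CPM in both control libraries. Of 4 basal markers, KRT5 had no count in any library, while TP63 had 94 and 89 counts in resistant and 0 and 1 in control libraries. Of the 5 fibroblast, 4 endothelial and 4 leukocyte markers, 2, 2 and 0 passed the filter, and none exceeded 7.84 CPM in any library. COL1A2 and CD3E were at 0 throughout. Of the fibroblast and endothelial markers that passed, COL3A1 and KDR were higher in resistant libraries. COL1A1 and VWF were lower (edgeR adjusted p below 0.05 for each of these genes).

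Of the 8 kallikreins, 5 passed the filter on low counts, and their RNA did not move together. KLK4 rose in resistant cells, while KLK15, KLKP1 and KLK3 fell and KLK2 fell slightly, in a call that 4 of 11 alternatives ended and whose sign turned under total count scaling. Among all 20325 genes tested, 33% were called higher and 31.7% lower (64.7% in either direction) by edgeR's quasi-likelihood test at an adjusted p below 0.05. The 1 higher and 4 lower kallikreins are read against that background, in which most genes were called. The median log2 fold change of the 5 was -0.49, which is the value of KLK3, beside -0.016 over all genes tested. It was -0.301 under total count scaling, beside 0.172 over all genes, and -0.667 with an offset for gene length and GC content. In bulk RNA, fewer cells expressing a gene and less RNA per cell cannot be told apart.

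**Figure D1:**
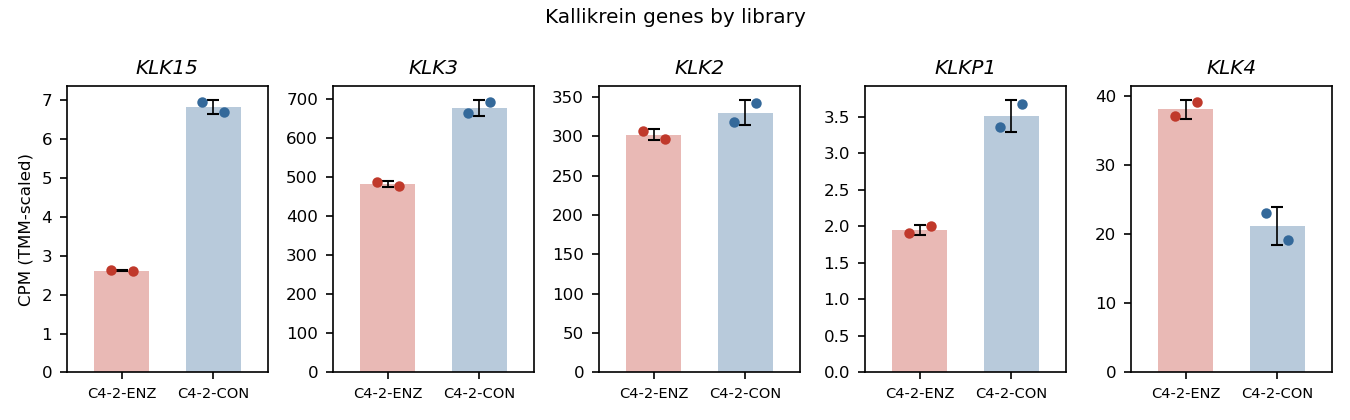
Level of the 5 kallikrein genes that passed the filter, in their order along the chromosome, in TMM-scaled CPM (each panel has its own axis, starting at 0). Points are libraries, bars are means and error bars the SD (n = 2). KLK4 has a higher mean and the other 4 a lower mean in C4-2-ENZ. KLK2 turns to 0.059 on the log2 scale under total count scaling. Among all genes tested, 33% were called higher and 31.7% lower.

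KLK3, on the plus strand of chromosome 19 at 50854915 to 50860764 (GRCh38, GENCODE 29, as for all genes below), had 487.4 and 477.3 CPM in resistant libraries, against 662.9 and 691.6 CPM in control libraries. Both resistant libraries lay below both control libraries, and the spread within each group was small beside the gap. Its mean fell 1.4-fold, to 482.3 ± 7.1 CPM in resistant cells against 677.2 ± 20.3 CPM in control cells (SD, n = 2 each). The log2 fold change was -0.49 (SE 0.0353, edgeR adjusted p = 1.86e-07). It was -0.30 when libraries were scaled by total count (edgeR adjusted p = 2.12e-05) and -0.67 with an offset for gene length and GC content (edgeR adjusted p = 2.21e-12).

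KLK2, immediately downstream of KLK3 on the same strand at 50861568 to 50880567, changed little. Its level was 306.7 and 296.9 CPM in resistant libraries, against 318.4 and 341.6 CPM in control libraries. These do not overlap, but the gap between the nearest libraries of the 2 groups was smaller than the distance between the control libraries. The log2 fold change was -0.13 (SE 0.042, edgeR adjusted p = 0.0181), a 1.09-fold lower mean. The sign turned to 0.059 under total count scaling (edgeR adjusted p = 0.254), where the median log2 fold change over all genes was 0.188 higher, and the length and GC offset gave -0.38 (edgeR adjusted p = 3.49e-08). The call ended without resistant replicate 1 (edgeR adjusted p = 0.0946) and without resistant replicate 2 (0.298), and without control replicate 2 the value was -0.068 (0.0341). Without a count filter it was -0.033 (edgeR adjusted p = 0.695).

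KLK4, on the minus strand at 50906352 to 50910738, was the member that rose. It had 37.06 and 39.01 CPM in resistant libraries, against 23.03 and 19.17 CPM in control libraries. The control libraries differed more from each other than the resistant ones did, and both stayed well below them. The mean rose 1.81-fold, to 38.04 ± 1.38 CPM in resistant cells against 21.1 ± 2.73 CPM in control cells (SD, n = 2 each; log2 fold change 0.86, SE 0.0771, edgeR adjusted p = 1.33e-06). Over all alternatives tried the log2 fold change lay between 0.73, without control replicate 2, and 1.04, under total count scaling.

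KLK15, on the minus strand at 50825289 to 50837213, fell most of the 5. Its level was 2.634 and 2.606 CPM in resistant libraries, against 6.964 and 6.7 CPM in control libraries. With 108 to 188 counts in each library the groups were far apart, at a 2.6-fold lower mean (log2 fold change -1.38, SE 0.12, edgeR adjusted p = 9.52e-07). AC011523.1, an antisense gene that overlaps the KLK15 span on the opposite strand without sharing exonic bases, was looked at after its values were seen. It had 10 and 15 counts in resistant and 24 and 33 counts in control libraries, and edgeR put its log2 difference at -1.96 (SE 0.323, adjusted p = 0.000216). The strand setting of the counting was not given in the sources used here, so intronic or antisense reads of this pair may not be separated.

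KLKP1, a transcribed pseudogene between KLK2 and KLK4 at 50882096 to 50896398 on the minus strand, is known from transcripts that join it to KLK4 in prostate cells. It had 1.908 and 2.002 CPM in resistant libraries, against 3.356 and 3.671 CPM in control libraries. Resistant libraries were again both below control libraries, at 83 to 92 raw counts in resistant and 80 to 103 in control libraries of unequal depth. The mean fell 1.8-fold (log2 fold change -0.85, SE 0.15, edgeR adjusted p = 0.000378). KLKP1 thus fell while KLK4, the next gene on the same strand, rose. Transcripts that join the 2 genes cannot be told from separate ones in counts per gene.

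**Figure D2:**
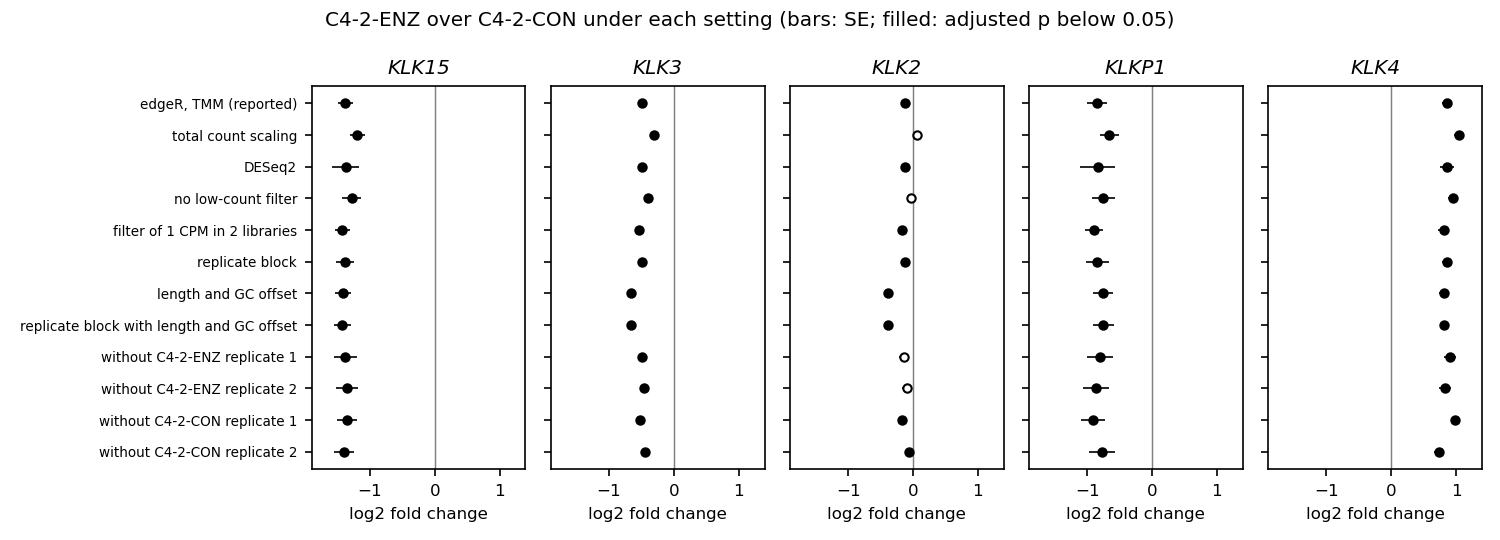
Log2 fold change (C4-2-ENZ over C4-2-CON, with SE) of the 5 kallikreins under the reported fit and 11 alternatives, 1 per row, with filled points for an adjusted p below 0.05. KLK4 stays above 0 and KLK3, KLK15 and KLKP1 below 0 with filled points in every row, while KLK2 has 4 open points and lies at 0.059 under total count scaling.

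The other 3 members were at or near 0 and were not tested. KLK1, the tissue kallikrein that releases kinins from kininogen, had 9 and 2 counts in resistant and 1 and 4 in control libraries, so its groups overlapped at this depth. KLK10, an epithelial kallikrein, had no count in any library, which allows up to 0.0622 and 0.0724 CPM in resistant libraries and 0.126 and 0.107 CPM in control libraries (3 counts per library). KLK11, a kallikrein known in normal prostate, had 1 count in all, in control replicate 2. Such limits cover counting error only.

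Ratios within a library do not depend on how libraries are scaled, and 4 were computed. KLK3 had 1.59 and 1.61 counts per KLK2 count in resistant libraries, against 2.08 and 2.02 in control libraries. KLK4 had 7.6 and 8.17 counts per 100 KLK3 counts in resistant libraries, against 3.47 and 2.77 in control libraries. Relative to KLK3, then, KLK2 and KLK4 each took a larger part in resistant cells. KLK15 had 0.54 and 0.546 counts per 100 KLK3 counts in resistant libraries, against 1.05 and 0.969 in control libraries. KLK4 had 19.4 and 19.5 counts per KLKP1 count in resistant libraries, against 6.86 and 5.22 in control libraries. Of the 4 ratios, only that of KLK3 to KLK2 was set out in the design. All 4 pair genes whose fold changes are given above, so groups that lie apart restate those differences. The groups did not overlap in any of the 4 ratios, but 2 libraries against 2 allow no exact two-sided permutation p below 0.333. Each ratio had that p, also after Benjamini-Hochberg adjustment over the 4.

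**Figure D3:**
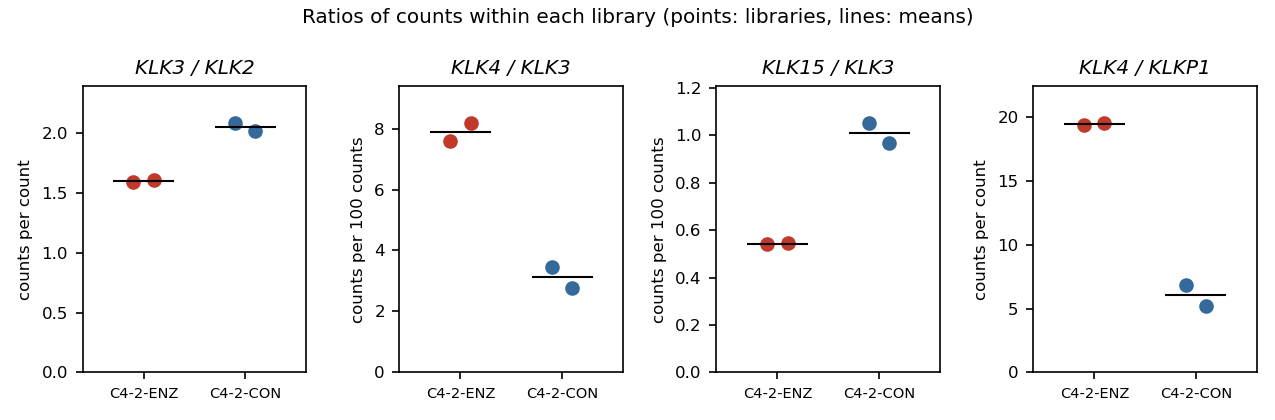
Ratios of raw counts of 2 kallikrein genes within each library, as counts per count or per 100 counts on linear axes from 0. Points are libraries and lines the means of 2, and the KLK4 ratios are higher and the KLK3 to KLK2 and KLK15 to KLK3 ratios lower in C4-2-ENZ.

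KLK3 and KLK2 made up nearly all kallikrein counts in both groups. KLK3 made up 58.3% of the summed counts of the 8 members in resistant cells and 65.2% in control cells. KLK2 made up 36.5% in resistant and 31.8% in control cells, and KLK4 4.59% in resistant and 2.01% in control cells. Together the 8 members took 0.0895% and 0.08683% of gene counts in resistant libraries, against 0.09452% and 0.09987% in control libraries, so that the resistant libraries were lower on this untested measure.

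Shares of counts depend on gene length, so levels of different genes were also compared per kilobase of exonic length. KLK3 was highest, at 104.0 ± 1.53 CPM per kilobase in resistant cells and 146.0 ± 4.37 in control cells (SD, n = 2 each). KLK2 came next, at 47.2 ± 1.08 in resistant and 51.61 ± 2.58 CPM per kilobase in control cells, then KLK4, at 19.66 ± 0.713 in resistant and 10.91 ± 1.41 CPM per kilobase in control cells. The order of these 3 was the same in both groups and their gaps exceeded the spread between libraries. KLK15 had 1.144 ± 0.00874 in resistant and 2.985 ± 0.0815 CPM per kilobase in control cells. KLKP1 was just below it in resistant cells, at 1.023 ± 0.0349, and further below in control cells, at 1.837 ± 0.116 CPM per kilobase. Exonic length is the union over GENCODE 29 transcripts, 6394 bases for KLK2 and 4639 for KLK3, and rarely used exons lower these levels.

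The expressed kallikreins lie side by side on the chromosome. In chromosome order the 16 genes run KLK1, KLK15, KLK3, KLK2, KLKP1, KLK4 and then KLK5 to KLK14 by number, over 265.1 kb. The 5 genes that passed the filter are neighbours within 85.4 kb, from KLK15 to KLK4, and held 40295 and 33901 counts in resistant and 24186 and 29822 counts in control libraries. The 10 genes beyond KLK4 summed to 11 and 6 counts in resistant and 7 and 17 counts in control libraries, and 4 of them, KLK8, KLK9, KLK10 and KLK13, had none. KLK12 was the highest of the 10 in control libraries, with 1 and 2 counts in resistant and 4 and 11 in control libraries. KLK14 was the highest in resistant libraries, with 7 and 3 counts there and 1 and 1 in control libraries. All 8 family genes outside the members listed above, KLK5 to KLK9 and KLK12 to KLK14, failed the filter.

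Of 54 other genes within 300 kb of the family or inside it, 14 passed the filter: 4 rose and 2 fell, beside 33% and 31.7% of all genes. The median of the 14 log2 fold changes was -0.28, but it was not stable: -0.15 without resistant replicate 2, -0.013 without control replicate 2, -0.094 under total count scaling and 0.093 with the filter of 1 CPM (8 genes). It also moved to -0.18 with the length and GC offset. C19orf48 was the called protein-coding gene nearest to any of the 8 members, 14219 bases from KLK1. It had 178.2 and 167.9 CPM in resistant and 240.9 and 273.4 CPM in control libraries, and fell (edgeR log2 difference -0.57, adjusted p = 2.92e-06). CTU1, a tRNA-modifying enzyme gene on the far side of KLK14, had 5.205 and 5.38 CPM in resistant and 3.356 and 4.633 CPM in control libraries (log2 fold change 0.39, edgeR adjusted p = 0.034). That call ended without control replicate 1 (0.19, edgeR adjusted p = 0.251), and without control replicate 2 the value was 0.67. It also ended without resistant replicate 2 (edgeR adjusted p = 0.0558), with the length and GC offset (0.487), with a filter of 1 CPM (0.0543) and with DESeq2 (0.116). CLEC11A, a secreted growth factor gene upstream of the family, rose by 0.45 on the log2 scale (edgeR adjusted p = 0.000649), or by 0.24 with the length and GC offset. C19orf81 rose by 0.67 on that scale (edgeR adjusted p = 0.0048, and 0.051 with DESeq2).

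**Figure D4:**
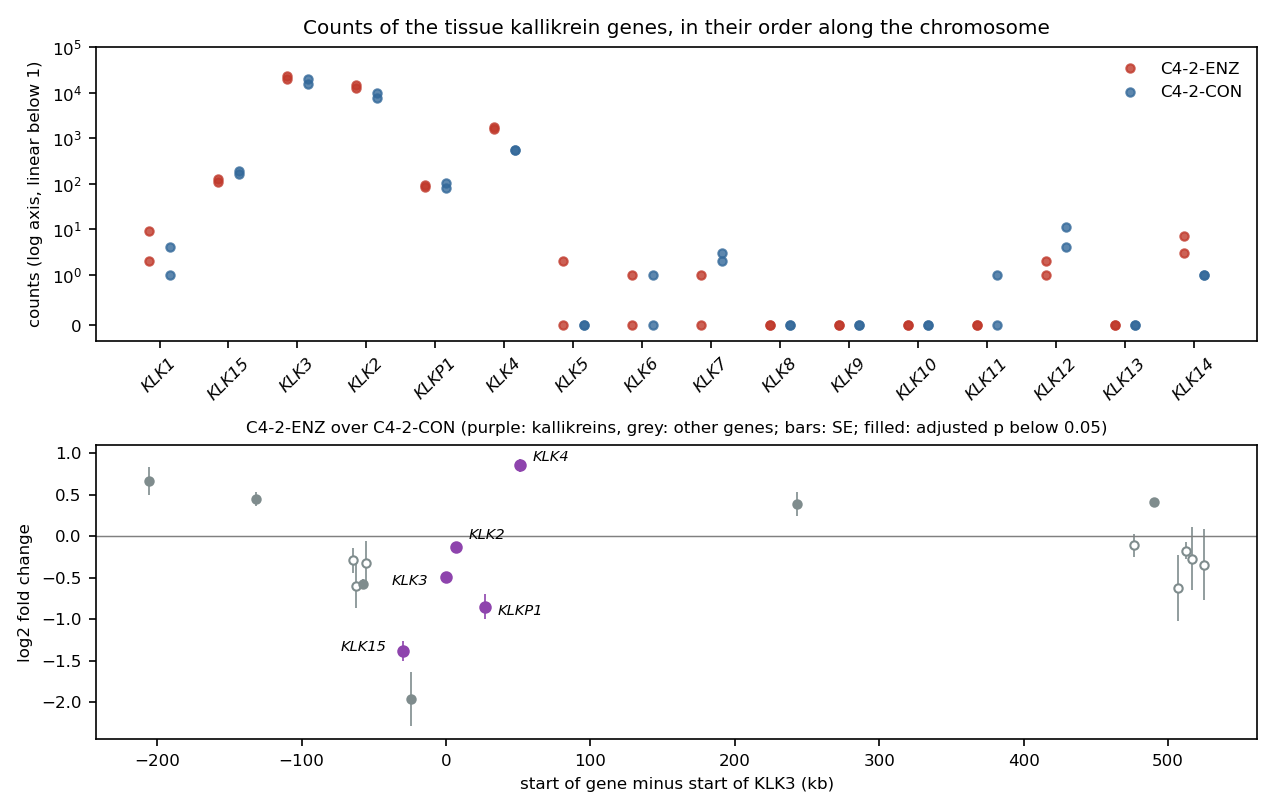
Upper panel: counts of the 16 family genes in each library, in chromosome order, on a log axis that is linear below 1, showing at least 80 counts at KLK15, KLK3, KLK2, KLKP1 and KLK4 and no more than 11 elsewhere. Lower panel: log2 fold change (C4-2-ENZ over C4-2-CON, with SE) of the kallikreins and of the other genes that passed the filter within 300 kb, against distance of gene start from that of KLK3 in kb.

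Genes that are known to control kallikrein transcription were mostly higher in resistant cells. Of 7 listed, 6 passed the filter: 5 rose and 0 fell, beside 33% higher and 31.7% lower among all genes. Their log2 fold changes had a median of 0.61, beside -0.016 over all genes. PGR, the progesterone receptor, rose 12-fold, with 75.26 and 75.2 CPM in resistant and 6.376 and 6.201 CPM in control libraries (edgeR adjusted p = 3.88e-12). GATA2, a zinc finger factor, had 144.0 and 143.9 CPM in resistant and 81.38 and 80.4 CPM in control libraries (log2 fold change 0.83, edgeR adjusted p = 7.26e-09), or 0.53 on the log2 scale with the length and GC offset. SPDEF, an ETS factor of prostate epithelium, rose 1.65-fold (edgeR adjusted p = 2.88e-07). The 1 gene tested and not called was NR3C1, the glucocorticoid receptor, with 1.431 and 1.496 CPM in resistant and 1.762 and 1.319 CPM in control libraries. KLK3, KLK15 and KLKP1 were thus lower in the same libraries in which PGR, GATA2 and SPDEF were higher, and KLK4 was higher.

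Other serine proteases, among them some that can activate protease precursors at the cell surface, were mostly higher too. Of 11 listed, 9 passed the filter: 7 rose and 1 fell, again beside 33% and 31.7% of all genes. The log2 fold changes had a median of 0.80, or 0.53 with the length and GC offset. TMPRSS2, a membrane protease gene that androgen induces, had 206.2 and 205.4 CPM in resistant and 100.7 and 106.4 CPM in control libraries (log2 fold change 0.99, edgeR adjusted p = 2.21e-09). ST14, which encodes matriptase, and HPN, which encodes hepsin, rose 1.74-fold and 1.76-fold (edgeR adjusted p = 4.81e-08 and 1.66e-07). For ST14 the log2 fold change was 0.80, or 0.53 with the length and GC offset. The 1 lower gene, TMPRSS4, had 1.701 and 1.472 CPM in resistant and 3.65 and 3.528 CPM in control libraries (log2 fold change -1.17, edgeR adjusted p = 4.69e-05).

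Of 15 protease inhibitors listed, 7 passed the filter, and 3 of these (42.9%) rose and 0 fell, a share of higher genes near the 33% over all genes. The median log2 fold change of 0.17 was not stable. It was 0.53 without resistant replicate 1, 0.55 without resistant replicate 2, 0.36 without control replicate 1 and 0.85 without control replicate 2. It was also 0.36 under total count scaling, 0.57 with the length and GC offset and 0.78 with the filter of 1 CPM (4 genes). SLPI, the secretory leukocyte protease inhibitor, had 551.6 and 537.3 CPM in resistant and 77.56 and 83.25 CPM in control libraries, a 6.77-fold rise (edgeR adjusted p = 2.67e-12). SPINT1 and SPINT2, Kunitz inhibitors of matriptase and hepsin, rose 1.69-fold and 1.86-fold (edgeR adjusted p = 1.51e-07 and 2.09e-08). SERPINA3, whose protein binds prostate-specific antigen in blood, had 1 and 1 counts in resistant and 3 and 0 in control libraries, and SERPINA5, the protein C inhibitor, had none.

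Substrates and receptors of kallikreins went both ways. Of 14 listed, 10 passed the filter: 6 rose and 2 fell, beside 33% and 31.7% of all genes. The log2 fold changes had a median of 0.39 that was not stable. It was 0.27 with the length and GC offset, 0.58 under total count scaling and 0.22 without a count filter (14 genes). It was 0.60 without resistant replicate 1, 0.54 without control replicate 1 and 0.53 without control replicate 2 (11 genes each). IGFBP3, an insulin-like growth factor carrier that prostate-specific antigen cuts, had 610.7 and 611.0 CPM in resistant and 49.58 and 49.57 CPM in control libraries, a 12.3-fold rise (edgeR adjusted p = 1.24e-13). FN1, fibronectin, rose 1.49-fold (log2 fold change 0.58, edgeR adjusted p = 1.64e-07), or by 0.21 on the log2 scale with the length and GC offset. F2R, the thrombin receptor, fell 2.42-fold (edgeR adjusted p = 3.38e-07). The other lower gene was BDKRB1, a kinin receptor (log2 fold change -1.41, edgeR adjusted p = 0.00123). BDKRB1 counts were low, at 21 and 17 in resistant and 21 and 38 in control libraries. SEMG2, which encodes a semenogelin and was looked at after its values were seen, had 40 and 39 counts in resistant and 2 and 2 in control libraries.

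**Figure D5:**
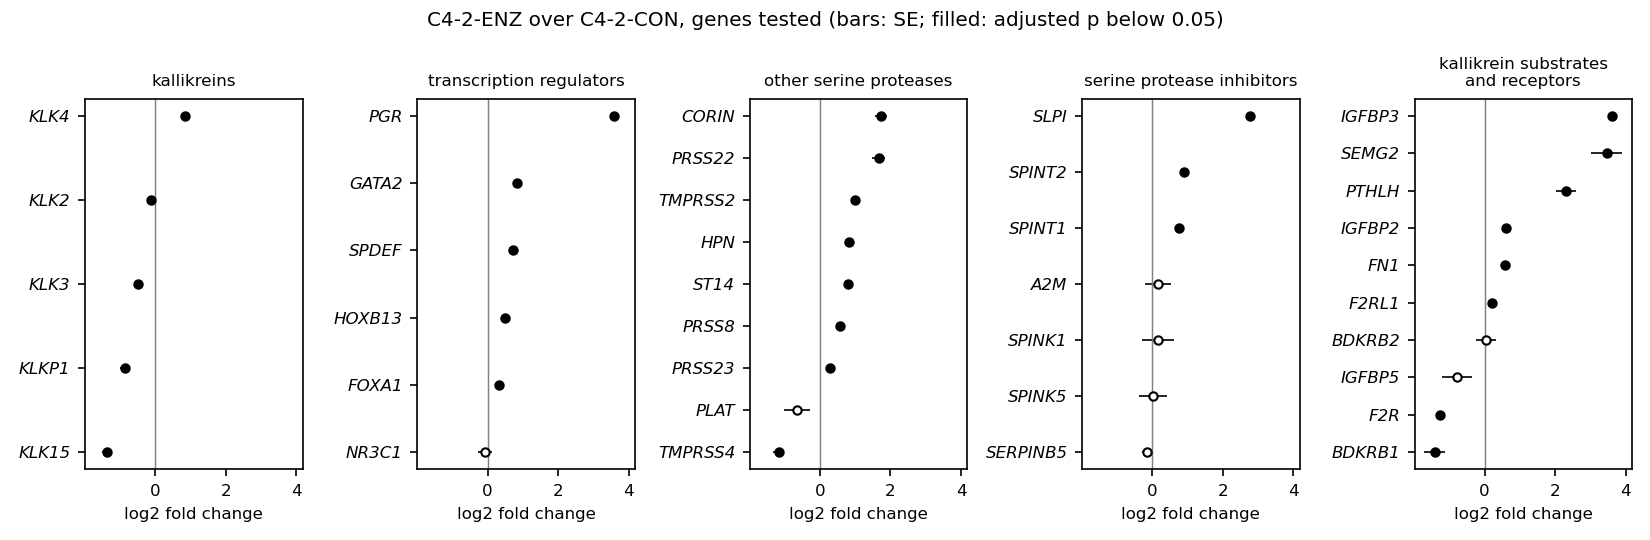
Log2 fold change (C4-2-ENZ over C4-2-CON) of the kallikreins that passed the filter and of the tested genes of 4 lists, with error bars for the approximate SE. Filled points have an edgeR adjusted p below 0.05. Above 0 lie 1 of 5 kallikreins (2 of 5 under total count scaling, where KLK2 turns) and 5 of 6 transcription regulators. Among all genes tested, 33% were called higher and 31.7% lower.

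Among 13941 other protein-coding genes tested, the 3 closest to KLK3 in centred log2 CPM over the 4 libraries were KIF2C, a mitotic kinesin, MOCOS, a molybdenum cofactor enzyme, and ADH5, an alcohol dehydrogenase. Their Euclidean distances were 0.0163, 0.0176 and 0.0225. ADH5, for example, had 99.69 and 99.13 CPM in resistant and 137.1 and 140.9 CPM in control libraries, and its log2 fold change was -0.48. Likeness over 4 libraries in 2 groups reflects mainly a fold change of similar size, which under total count scaling was -0.30 for KIF2C, -0.32 for MOCOS and -0.30 for ADH5.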

How the data were processed

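RNA of C4-2 cells was sequenced in 2 enzalutamide-resistant and 2 control libraries. For each library the authors deposited a table of raw, unnormalized read counts by gene. Per the submitters' processing notes, the aligner was STAR 2.5.2b, the counter HTSeq and the build GRCh38 (hg38). Which mode, strand setting and annotation HTSeq used was not given in the sources used here. Neither library sizes nor tests used the 5 summary rows of each table, whose share of records was 55.41% and 56.87% in resistant replicates 1 and 2 and 74.4% and 71.08% in control replicates 1 and 2.

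Identifiers were matched without version to GENCODE 29 and a symbol table, which named 56753 of 60483. Genes were filtered with filterByExpr (minimum count 10), scaled with TMM and tested in edgeR 4.0.16 (R 4.3.3) by its quasi-likelihood F test, with group as the only term and 2 residual degrees of freedom. Benjamini-Hochberg adjustment of p-values ran over all genes tested, with calls made below 0.05. The SE of a log2 fold change is approximate (absolute log2 fold change over the root of F). The fit was tested on simulated data with 200 changed genes and the same spread set for every gene. In the real data 13148 of 20325 genes were called. The simulation therefore cannot show how scaling and calls behave when most genes change. Within pairs, counts differed by more than sampling noise (chi-square per degree of freedom 2.38 in the resistant and 5.67 in the control pair). Nothing in the labels makes the replicates separate cultures. P-values therefore reflect the spread among these 4 libraries alone, and it may be technical.

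Alternatives were total count scaling, DESeq2 1.42.0, no filter beyond 1 count, a filter of 1 CPM in 2 libraries and leaving out each library. Others were the replicate number as a block and a per-library offset for length and GC content, alone and with the block. The offset came from splines of log2 CPM, centred on each gene's mean over the libraries, on exonic length and GC content. It can also take up differences between the groups that follow length or GC content. The members and lists were chosen with earlier results of these data known. Named genes were the 8 members, up to 3 called genes with the smallest adjusted p from each list, up to 4 called protein-coding genes nearest to a member and the 3 closest to KLK3. Some listed genes are not reported here, and list counts and medians leave them out. Genes named outside this rule were chosen after their values were seen. Sequences were read from RefSeq (GRCh38.p14) and aligned with Biopython 1.88.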

Additional observations from a re-analysis of the deposited data

How the results depend on the processing

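Of 55 alternative log2 fold changes of the 5 tested kallikreins, 51 kept their direction and their side of the threshold. The exceptions were all KLK2, which turned to 0.059 under total count scaling and lost its call without a count filter (-0.033) and without either resistant replicate (-0.142 and -0.09). Of 209 alternative values of 19 other named genes, 202 kept both and 7 lost the call, 6 for CTU1 and 1 for C19orf81. Without a control library, the spread came from the resistant pair alone, which differed less (chi-square per degree of freedom 2.38, against 5.67). Calls kept in those fits therefore say little. Total count scaling made 64.4% of called genes higher, against 51% with TMM, and then 1 kallikrein was higher and 3 lower. Without a count filter, 7560 genes were higher and 5710 lower of 40992.

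Counts of list members moved under a few settings. With a filter of 1 CPM, 1 substrate or receptor gene and 1 gene near the cluster were lower. DESeq2 left 2 genes near the cluster higher. With the length and GC offset 2 of the other serine proteases were lower, with or without the block. One of the kallikreins outside the 8 members was lower without a count filter, and without each library in turn that count was 0 to 1. The summed share of the 8 members differed by -0.00903 percentage points (resistant minus control), or by -0.0177 without the 10 genes with the most counts, and the cause was not tested.

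With the replicate number as a block, which left 1 residual degree of freedom, 1 kallikrein was higher and 4 lower, and 6647 and 6444 genes were called higher and lower. Same-numbered libraries did not deviate together (correlation -0.0228 across genes), so the numbers are not taken to pair the libraries.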
